A study of Mus musculus with 10 samples.

Results

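The 9 genes described here encode regulators of mitochondrial apoptosis of the Bcl2 family, in spinal motor neurons (MNs) soon after their birth. They were chosen by name and by role, though with earlier results of these data known. They are the anti-apoptotic genes Bcl2, Bcl2l1 and Mcl1, the pore-forming effectors Bax and Bak1, and the BH3-only genes Bcl2l11, Bbc3, Pmaip1 and Hrk. They are 9 of the 48978 genes counted, and all 9 were among the 17867 genes with enough counts to be tested. YFP-positive cells were sorted by FACS from the spinal cord of mouse embryos at e10.5, and their RNA was sequenced in 5 control and 5 cdKO samples. All 10 samples carried 1 copy of Olig2-Cre and 1 copy of the Rosa26R-YFP reporter. Control samples had the genotype Oc1+/Flox and Oc2+/Flox, that is, 1 floxed and 1 wild-type allele of each gene, and cdKO samples had Oc1-/Flox and Oc2-/Flox, with a null allele in place of the wild-type one. Oc1 and Oc2 are Onecut transcription factors of newly born MNs, and the question addressed here is whether the balance of death and survival genes differed when they were removed. Olig2-Cre acts from the MN progenitor onwards, so the sorted cells held progenitors and their progeny together with MNs, and a bulk sample cannot tell fewer cells of a type from less RNA per cell.

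Bcl2-family proteins decide whether the outer membrane of the mitochondrion stays closed. Bax and Bak1 open it when activated, cytochrome c is released and caspases are switched on. Bcl2, Bcl2l1 (Bcl-xL) and Mcl1 bind and restrain them, and the BH3-only proteins, which are induced by stress or by loss of trophic support, neutralise the restrainers or activate the effectors through a short helix called the BH3 domain. In the spinal cord, MNs are produced in excess, and many die later in embryonic life in a process that requires Bax and is moderated by trophic factors from muscle. The e10.5 stage precedes the main wave of this loss.

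A feature that the 3 classes share is the BH3 core, and its coding sequence is shown for that reason. The coding sequences of the GENCODE M21 transcripts (build GRCm38) were searched on the coding strand for a codon of leucine, any 3 codons, a codon of glycine or alanine, a codon of aspartate, a codon of aspartate, glutamate or glycine, and a codon of phenylalanine, valine, isoleucine or leucine. Each of the 8 genes examined held it once. The pattern was written to describe the BH3 core, so its presence in these 8 is no result of the search. It is not particular to them, since 405 of 21614 protein-coding genes held it at least once (1.87%). Pmaip1 is named only. The 24 bases are given 5′ to 3′, with the codons of the leucine, of the glycine or alanine and of the aspartate in capitals.
Bcl2: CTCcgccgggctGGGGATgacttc
Bcl2l1: CTGagagaggcaGGCGATgagttt
Mcl1: CTGcggcgcgtgGGCGACggcgtg
Bax: CTCcggcgaattGGAGATgaactg
Bak1: CTTgctctcatcGGAGATgatatt
Bcl2l11: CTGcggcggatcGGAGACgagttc
Bbc3: CTGcggcggatgGCGGACgacctc
Hrk: CTGcaggcgctgGGCGACgagctg

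All of these are coding, exonic positions. The Bcl2 core lay at chr1:106712578-106712601 on the minus strand, in the first of 2 exonic regions of the gene. Those of Bcl2l1 (chr2:152829700-152829723, minus strand) and Mcl1 (chr3:95659436-95659459, plus strand) lay in region 4 of 5 and region 1 of 3. The Bax core was at chr7:45466000-45466023 and the Bak1 core at chr17:27022534-27022557, both on the minus strand, in region 2 of 5 and region 4 of 7. Among the BH3-only genes, the core of Bcl2l11 was at chr2:128147150-128147173 in region 5 of 6, that of Bbc3 at chr7:16313773-16313796 in region 5 of 6, and that of Hrk at chr5:118169891-118169914 in region 2 of 3, all on the plus strand. The core of Bbc3 is the only one of the 8 printed with an alanine codon (GCG) in place of a glycine codon.

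Counts had been deposited per exon bin, a non-overlapping piece of an exon, and were summed to genes. A control sample held 63932395 to 107709534 counts in all and a cdKO sample 72315782 to 84249157. Levels are given as CPM, counts scaled to a common library total, after TMM scaling, on which 3 counts, the smallest number treated as a signal, correspond to between 0.0285 and 0.0586 CPM. As a check of the labels, exon 1 of Oc1 (Onecut1) had 63 to 210 counts in a control sample and 0 to 17 in a cdKO sample, 2.93% of the control mean on the CPM scale. The related gene Oc3 (Onecut3) had 29 to 68 counts in control and 0 to 3 in cdKO samples. One library stood apart: cdKO replicate 5 had counts on 198569 bins, where the other cdKO samples had 254982 to 264487 and the controls 243970 to 271591. Where the value of 1 of the 9 genes or of a score turned on it, the value without it is given as well. For the other genes named this is done only in part. Markers of MNs summed to 533 to 772 CPM in control and 401 to 912 CPM in cdKO samples, and markers of MN progenitors to 680 to 2154 and 822 to 1570 CPM. All 6 progenitor markers had a negative log2 fold change (median -0.19), as did 5 of 6 proliferation markers (median -0.24). In either list 0 passed an unadjusted edgeR p of 0.05. Of the 9 MN markers, 8 did not pass an unadjusted edgeR p of 0.05, and Isl1, a transcription factor of differentiating MNs, was lower in cdKO samples (log2 fold change -0.82, unadjusted p = 0.0181, adjusted p = 0.937).

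None of the 9 genes passed the test of a difference between control and cdKO samples. With edgeR's quasi-likelihood test, 0 of the 9 passed an adjusted p of 0.05, and the same was true of 0 of 17867 genes tested (0%). Even Oc3, nearly absent from cdKO samples, fell short in this test (log2 fold change -5.08, unadjusted p = 1.25e-05, adjusted p = 0.112). A count of 0 of 9 therefore does not show that the 9 genes were unchanged. At an unadjusted p of 0.05, again 0 of 9 passed, against 894 of 17867 genes (5.00%), of which 747 were higher in cdKO samples (4.18%) and 147 lower (0.823%). That split turned on cdKO replicate 5, without which 107 of 18189 genes were higher (0.588%) and 321 lower (1.76%), again with 0 of the 9 in either direction. Control and cdKO values overlapped for every one of the 9, while they did not for 73 of all genes tested (0.409%). The other tests called 19 genes (DESeq2), 3 (limma-voom) and 13 (limma-voom with sample weights) at an adjusted p of 0.05, none of the 9 among them. The paper's supplement shows selected candidates of its own comparison. It gives an adjusted p under 0.05 for several of them, Tac1, Oc1 and Oc3 included, and lists none of the 9 genes. The median log2 fold change over the 9 was 0.00 and over all genes tested -0.02. The smallest adjusted p among the 9 was 0.937, for Bax. The 95% intervals reported below state what sizes of change remained possible, and these were wide for the weakly read genes.

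**Figure D1:**
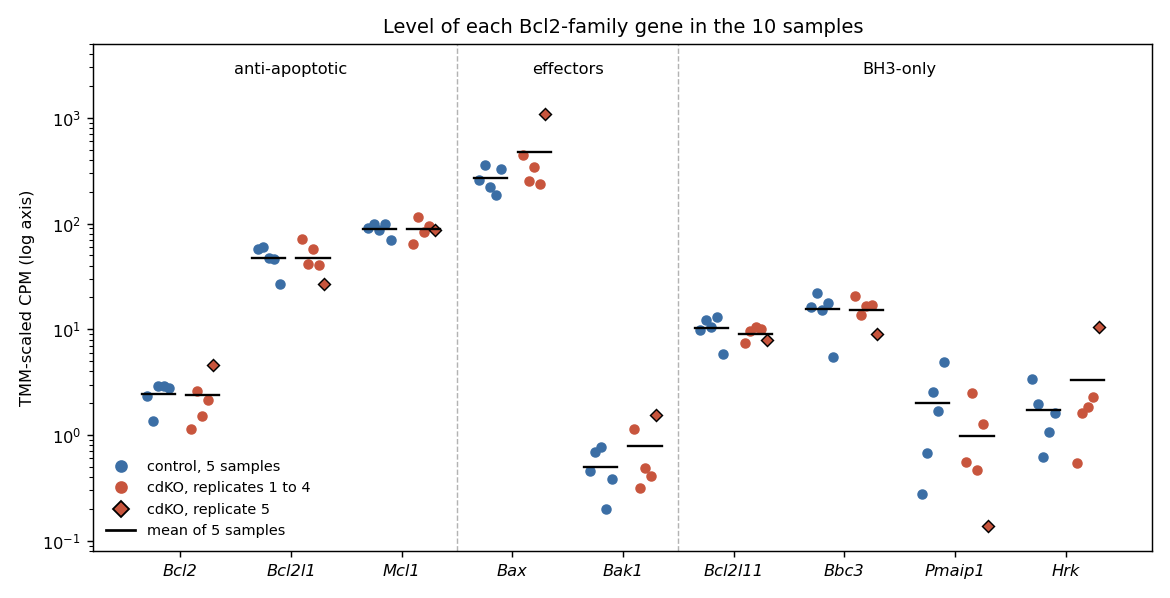
TMM-scaled CPM (log axis) of each of the 9 genes in every sample, control in blue and cdKO in red, with cdKO replicate 5 as a diamond and a black line at the mean of the 5 samples of a group. The 2 groups overlap for every gene, and cdKO replicate 5 is the highest of all 10 samples for Bcl2, Bax, Bak1 and Hrk and the lowest for Bcl2l1 and Pmaip1.

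Between genes, levels were compared per kb of summed exon length. Bax was read most strongly, at a mean of 236 CPM per kb over the 10 samples, with 117 in the lowest sample. Mcl1 followed with 26.1, then Bcl2l1 with 10.4, Bbc3 with 7.24 and Bcl2l11 with 1.21 CPM per kb. Each of these 5 genes was above the next in all 10 samples, except that Bcl2l11 was above its successor, Pmaip1, in 9. The last 4 were low and their order was not settled by the spread between samples: Pmaip1 at 0.566, Hrk at 0.447, Bak1 at 0.265 and Bcl2 at 0.265 CPM per kb. Pmaip1 exceeded Hrk in 6 samples, Hrk exceeded Bak1 in 8, and Bak1 exceeded Bcl2 in 4. Among the 9, Mcl1 thus led the anti-apoptotic genes, Bax the effectors and Bbc3 the 4 BH3-only genes. Bad, a BH3-only gene outside the 9 that was singled out after its values were seen, was above Bbc3, at 21.6 CPM per kb.

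A read that spans several bins had been counted on each of them, so a gene cut into many short bins, such as Bax with 18 bins in 1576 bases, gains counts. On a second scale, which takes only the bin of each gene with the highest mean count and divides its CPM by the bin length plus the read length of 150 bases, Bax had 144 ± 40.6 CPM per kb in control samples (SD, n = 5), Mcl1 19.99 ± 1.38, Bcl2l1 12.1 ± 2.78, Bbc3 9.82 ± 3.74 and Bcl2l11 1.35 ± 0.559. The first 5 places were the same as on the first scale in both groups. The remaining genes had 0.665 (Pmaip1), 0.290 (Hrk), 0.193 (Bcl2) and 0.0685 (Bak1) CPM per kb in control samples.

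Mcl1, a short-lived protein that binds Bak1 and the BH3-only proteins, was the steadiest of the 9. Its level was 90.8, 98.3, 87.5, 99.8 and 69.9 CPM in control replicates 1 to 5 and 64.7, 115.6, 83.9, 94.96 and 87.7 CPM in cdKO replicates 1 to 5. The cdKO samples thus held both the lowest and the highest value, and the coefficient of variation over the 10 samples was 16.4%. Group means were 89.3 ± 11.9 and 89.4 ± 18.4 CPM (SD, n = 5; exact permutation test on log2 values, two-sided, p = 0.960), and the log2 fold change was 0.00 with a 95% interval from -0.53 to 0.53.

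Bcl2l1, whose long product Bcl-xL restrains Bax in neurons, was similarly placed in both groups. It was read at 57.9, 60.2, 47.2, 46.3 and 27.0 CPM in control and at 71.0, 41.6, 57.1, 40.9 and 26.8 CPM in cdKO replicates 1 to 5. The lowest sample of each group was its replicate 5, and the 2 were nearly equal. The means were 47.7 ± 13.2 and 47.5 ± 16.9 CPM (SD, n = 5; exact permutation p = 0.960), a log2 fold change of -0.01 with a 95% interval from -0.69 to 0.68. Without cdKO replicate 5 it was 0.14 ± 0.29 (SE).

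Bcl2, the founding gene of the family, was low at this stage. Its values were 2.33, 1.35, 2.92, 2.87 and 2.79 CPM in control and 1.14, 2.58, 1.51, 2.13 and 4.63 CPM in cdKO replicates 1 to 5, or between 91 and 259 counts. Only cdKO replicate 5 exceeded the control samples, and the other 4 cdKO samples lay within or below them, with a mean of 1.84 ± 0.639 CPM (SD, n = 4). Over all samples the means were 2.45 ± 0.661 and 2.40 ± 1.36 CPM (SD, n = 5; exact permutation p = 0.714). The log2 fold change was -0.03 (95% interval -0.94 to 0.87) and without cdKO replicate 5 it was -0.41 ± 0.34 (SE). Of the Bcl2 counts, 44.7% lay in the last of its exonic regions, chr1:106538178-106543398, which another annotated gene, D630008O14Rik, also covers. Since strand had not been used in counting, reads of the 2 genes cannot be told apart there. In the first region, which is free of other genes and holds most of the coding bases, Bcl2 had 1.42 ± 0.480 CPM in control and 1.14 ± 0.557 CPM in cdKO samples (SD, n = 5).

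The effector Bax, without which developing MNs largely escape naturally occurring death, had 13729 to 56044 counts in a sample. Control replicates 1 to 5 had 258, 362, 224, 184 and 325 CPM, and cdKO replicates 1 to 5 had 449, 250, 340, 235 and 1094 CPM. Of the cdKO samples, replicates 1 and 5 lay above the highest control sample, while replicates 2, 3 and 4 lay inside the control range. The group means were 271 ± 72.6 and 474 ± 357 CPM (SD, n = 5). The exact permutation test gave p = 0.222 and edgeR an unadjusted p of 0.0747 (adjusted p = 0.937). The log2 fold change was 0.81 ± 0.42 (SE; 95% interval -0.09 to 1.71), that is, 1.75-fold. Without cdKO replicate 5 it was 0.24 ± 0.26 (SE), and the other 4 cdKO samples averaged 319 ± 98.4 CPM (SD, n = 4). Replicates 2 and 4 were the 2 lowest cdKO samples, and leaving out either one gave an unadjusted edgeR p of 0.0417 or 0.0374 (adjusted p of 0.667 or 0.621). Bax thus did not pass the test with all samples, and 1 library set most of the size of its fold change. The counts of Bax on bins that the read-through gene Gm45808 also covers were 23.0% of the total, and on the remaining bins the log2 fold change was 0.84.

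Bak1, the second effector, was weakly read. It had 0.457, 0.683, 0.766, 0.202 and 0.380 CPM in control and 1.13, 0.318, 0.487, 0.413 and 1.54 CPM in cdKO replicates 1 to 5, which are 15 to 90 counts. As for Bax, cdKO replicates 1 and 5 were above every control sample and the other 3 were not. The log2 fold change was 0.63 with a 95% interval from -0.57 to 1.84 (exact permutation p = 0.365), and without cdKO replicate 5 it was 0.24 ± 0.51 (SE). Bins shared with Ggnbp1 on the same stretch of chromosome 17 held 37.8% of the Bak1 counts.

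Bbc3 (Puma), the BH3-only gene best known as a target of p53, had nearly the same mean in both groups. The control values were 16.3, 22.2, 15.3, 17.7 and 5.47 CPM and the cdKO values 20.7, 13.8, 16.6, 16.8 and 9.04 CPM for replicates 1 to 5. In each group replicate 5 was the lowest, and no cdKO sample lay outside the control range. Means were 15.4 ± 6.14 and 15.4 ± 4.31 CPM (SD, n = 5; exact permutation p = 0.841). The log2 fold change was 0.00, with a 95% interval from -0.79 to 0.78.

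Bcl2l11 (Bim), a mediator of death after trophic factor withdrawal in neurons, was read at 9.79, 12.1, 10.6, 13.0 and 5.88 CPM in control and at 7.48, 9.53, 10.4, 10.01 and 7.93 CPM in cdKO samples. The cdKO values lay within the control range. The means were 10.3 ± 2.77 and 9.07 ± 1.296 CPM (SD, n = 5; exact permutation p = 0.556), a log2 fold change of -0.18 with a 95% interval from -0.81 to 0.45.

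Hrk (harakiri), a BH3-only gene induced in neurons deprived of trophic support, was low and uneven. It had 3.36, 1.97, 0.619, 1.07 and 1.62 CPM in control replicates and 0.540, 1.63, 1.85, 2.29 and 10.4 CPM in cdKO replicates 1 to 5. The cdKO samples 1 to 4 covered much the same range as the control samples, and replicate 5 was 6.61 times their mean. With all samples the log2 fold change was 0.95 (95% interval -0.54 to 2.43; exact permutation p = 0.556), and without cdKO replicate 5 it was -0.14 ± 0.51 (SE), with the opposite sign. Most Hrk counts, 90.7% to 97.5% in a sample, lay in its last exonic region of 5001 bases, which holds no coding base.

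Pmaip1 (Noxa), which chiefly antagonises Mcl1, varied most between the control samples. They had 0.278, 0.674, 2.53, 1.69 and 4.88 CPM, and the cdKO samples had 0.553, 2.498, 0.462, 1.28 and 0.137 CPM. Control replicate 5 was the highest of the 10 and cdKO replicate 5 the lowest, with 7 counts. The log2 fold change was -1.02 with a 95% interval from -2.71 to 0.66 (exact permutation p = 0.333). It was -0.39 without control replicate 5, -0.72 without cdKO replicate 5 and -1.72 without cdKO replicate 2, so the size of the difference depended on single libraries.

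**Figure D2:**
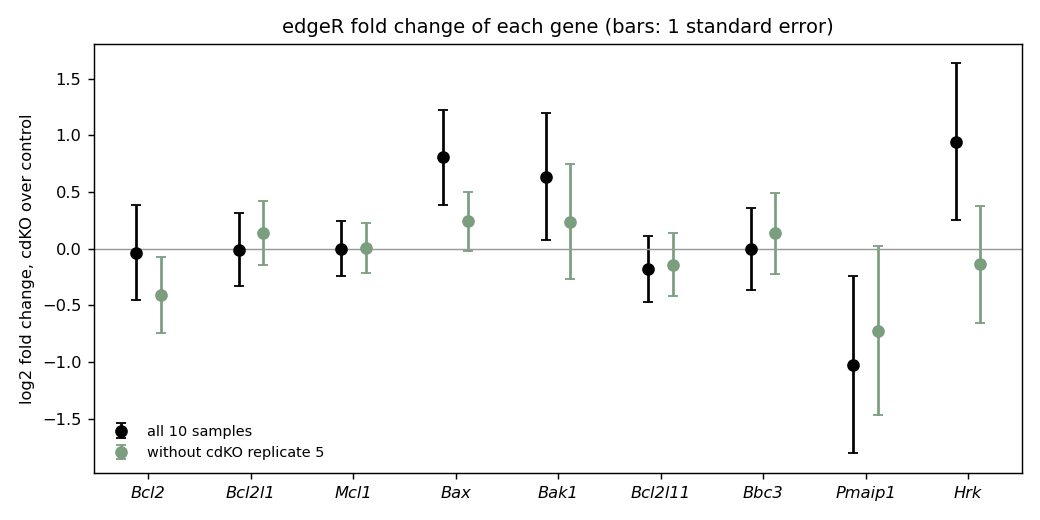
Log2 fold change of each gene, cdKO over control, from edgeR's quasi-likelihood fit with all 10 samples (black) and without cdKO replicate 5 (green), with bars of 1 standard error. Without that library Bax moves from 0.81 to 0.24 and Hrk from 0.95 to -0.14, while Mcl1 stays at 0.00 and 0.01.

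The balance of the family was expressed, for each sample, as the mean log2(CPM + 0.5) of the 6 pro-apoptotic genes minus that of the 3 anti-apoptotic genes. A higher score means relatively more pro-apoptotic transcript, and only differences between samples can be read, since its zero depends on gene lengths. Control replicates 1 to 5 scored -1.80, -1.40, -1.71, -1.86 and -1.39, and cdKO replicates 1 to 5 scored -1.46, -1.71, -1.57, -1.52 and -1.16. The groups overlapped: 4 of the 5 cdKO samples fell inside the control range, and replicate 5 lay above it. The means were -1.63 ± 0.22 and -1.48 ± 0.20 (SD, n = 5), a difference of 0.15, which is smaller than the SD of either group. Without cdKO replicate 5 the difference was 0.07.

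The 3 roles contributed unequally to this small difference. The anti-apoptotic mean was 4.51 ± 0.18 in control and 4.46 ± 0.12 in cdKO samples (log2 units, SD, n = 5), and the BH3-only mean was 2.32 ± 0.11 and 2.25 ± 0.24. The effector mean was 4.003 ± 0.31 and 4.45 ± 0.72, with 5.56 in cdKO replicate 5 and 3.84 to 4.76 in the other cdKO samples. A score of Bax and Bak1 alone against the anti-apoptotic genes accordingly differed by 0.49, and a log2 ratio of summed CPM, in which Bax outweighs the other genes, by 0.54. These differences were 0.23 and 0.14 without cdKO replicate 5. Per kb of exon length, the 4 BH3-only genes summed to 0.257 ± 0.0354 of the 3 anti-apoptotic genes in control samples (range 0.204 to 0.299) and to 0.255 ± 0.0437 in cdKO samples (range 0.206 to 0.317). The summed effectors were at 172 ± 46.1 and 301 ± 227 CPM per kb (SD, n = 5), and the latter was 202 ± 62.6 over cdKO replicates 1 to 4 (SD, n = 4).

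**Figure D3:**
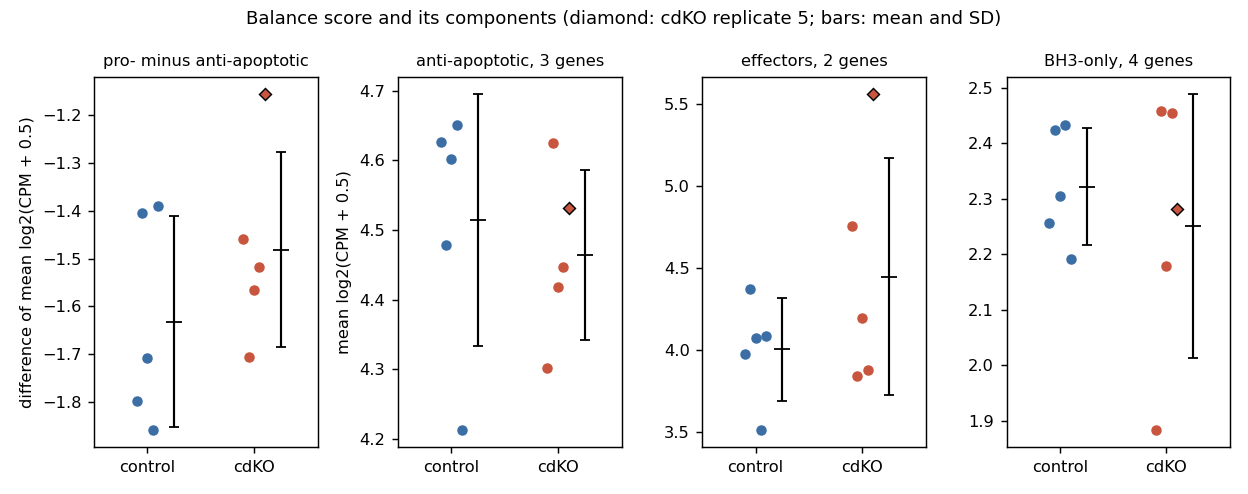
Balance score (left) and mean log2(CPM + 0.5) of each role (right 3 panels) by sample, each panel with its own axis, with the mean and SD of the 5 samples beside the points and cdKO replicate 5 as a diamond. The score of cdKO replicate 5, -1.16, and its effector mean, 5.56, are the highest of the 10 samples. The ranges of the 2 groups overlap in every panel, but cdKO replicate 1 (4.76) also lies above the control effector means. In the BH3-only panel cdKO replicates 1 and 3 lie below the control range of 2.19 to 2.43, and replicates 2 and 4 above it.

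Because the fold changes of Bax and Hrk turned on cdKO replicate 5, the spread of counts along the 9 genes was compared between samples. In 8 of the 9 genes the share of counts in the last exonic region was higher in this library than in any of the other 9. The share was not computed for other genes, so whether 8 of 9 is particular to this family is not known. For Bcl2l1 it was 83.6%, against 45.1% to 51.9% elsewhere, for Mcl1 85.4% against 66.6% to 77.0%, and for Bbc3 78.8% against 62.2% to 70.3%. Bcl2 had 80.2% against 22.8% to 57.3%. The same share was 69.2% for Bcl2l11 (46.0% to 64.7% elsewhere), 64.6% for Bak1 (8.89% to 46.7%) and 100% of 7 counts for Pmaip1 (71.8% to 88.6%). Bax, whose exonic regions sum to 1576 bases, had 28.2% against 24.3% to 26.4%, and Hrk, at 93.8%, was inside the range of the others.

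The level of a gene in this library also moved with its length. Relative to the mean of the other 4 cdKO samples, on the log2 scale, the median of tested genes was 0.88 for exon lengths up to 1000 bases and 0.38 from 1000 to 2000 bases, but -0.29 from 2000 to 4000, -0.41 from 4000 to 8000 and -0.09 above 8000 bases. Bax, in the second class, was at 1.83, above the upper quartile of its class (1.17). Hrk was at 2.48 and Bcl2 at 1.17, also above the upper quartiles of their classes, 0.43 and 0.73, as was Bak1 at 0.96 (0.54). Bcl2l1 at -0.92, Bbc3 at -0.86, Mcl1 at 0.00 and Bcl2l11 at -0.22 lay between the quartiles, and Pmaip1 at -1.26 lay below. The part of coverage and length in the values of Bax and Hrk was not tested.

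**Figure D4:**
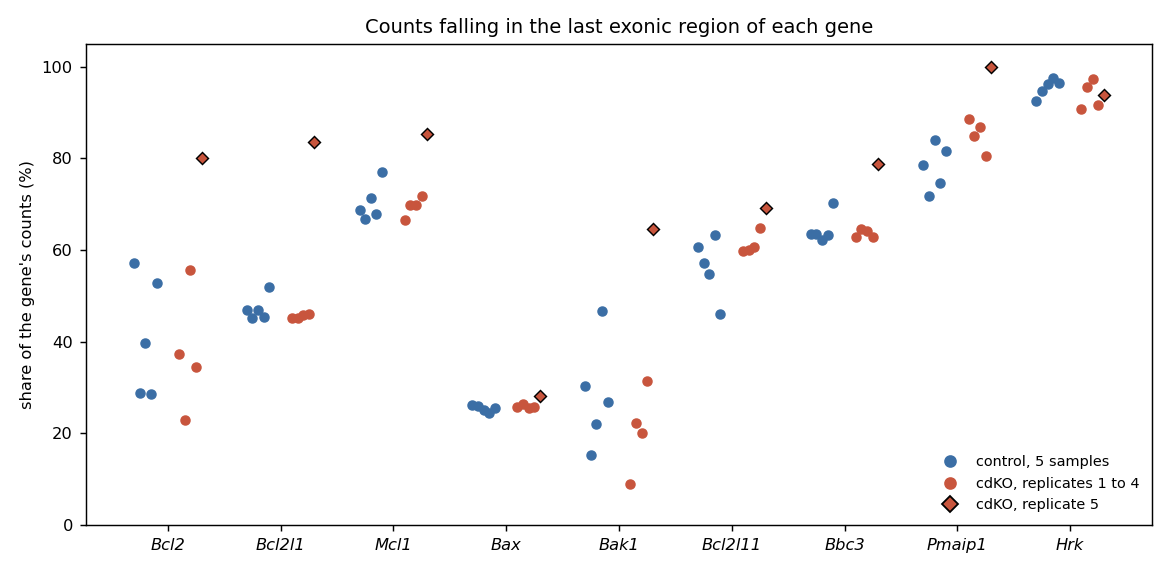
Share of each gene's counts (%) that fall in its last exonic region, by sample, control in blue, cdKO in red and cdKO replicate 5 as a diamond. The diamond lies above all other samples for every gene except Hrk, and for Bcl2l1 it is at 83.6% while no other sample exceeds 51.9%.

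**Figure D5:**
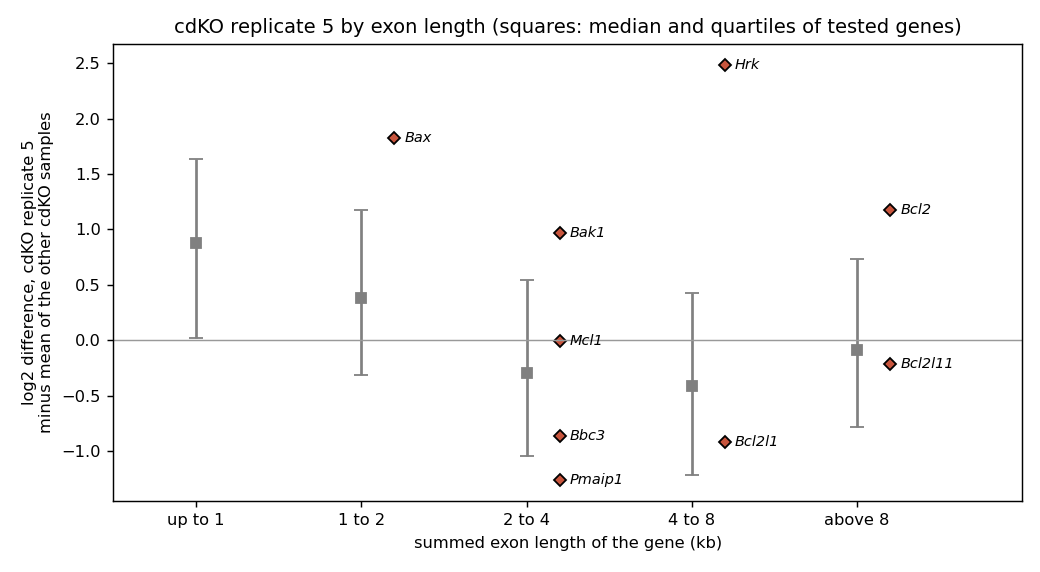
Log2 difference between cdKO replicate 5 and the mean of the other 4 cdKO samples by summed exon length, as the median and quartiles of all tested genes in 5 length classes (grey) and for the 9 genes (diamonds). The medians go from 0.88 in the shortest class to -0.41 between 4 and 8 kb, and Bax at 1.83 and Hrk at 2.48 lie above the quartiles of their classes.

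Other cell types were traced with marker lists. The paper reports YFP also in likely V3 interneurons. The 3 V3 markers summed to 98.7 CPM in control replicate 5 and 21.1 to 27.3 CPM in the other controls. In cdKO samples they summed to 18.3 to 38.3 CPM, and 0 passed an unadjusted p of 0.05. Control replicate 5 was also highest of all samples for progenitor markers and lowest of the controls for MN markers. Sensory neuron and neural crest markers summed to 17.3 to 47.3 CPM in control and 13.1 to 35.4 CPM in cdKO samples. Of these 6 markers, 4 were tested, 3 with a positive log2 fold change and 1 with a negative one (median 1.196). In this list 0 passed an unadjusted p of 0.05. Of 10 macrophage markers, 2 were tested and neither passed an unadjusted p of 0.05. The summed macrophage level was 3.26 to 6.93 CPM in control and 3.76 to 8.71 CPM in cdKO samples, the largest part of it Csf1r, with C1qc at 0 in every sample. The 10 erythroid markers summed to 1.29 to 19.2 CPM in control and 2.94 to 66.2 CPM in cdKO samples, the highest being cdKO replicates 5 and 3. Of these, 7 were tested, all 7 with a positive log2 fold change (median 2.06), and 2, Hba-a1 and Hba-a2, passed an unadjusted p of 0.05 as higher in cdKO samples (4.18% of all genes). Without cdKO replicate 5, or with library size only in place of TMM, all 7 stayed positive (medians 0.95 and 1.72) and 0 passed. The 8 mesenchyme markers summed to 6.87 to 18.9 CPM and 10.3 to 21.7 CPM, all 8 with a positive log2 fold change (median 0.49), and 2, Col1a2 and Twist1, passed as higher. Of these 8, 6 were positive and 1 passed without cdKO replicate 5, and likewise with library size only. The part of these cells in the levels of the 9 genes was not tested.

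For 1 gene of each role, the 3 tested genes with the most similar course over the 10 samples were sought, by the root mean square difference of log2(CPM + 0.5) after centring. The course of Bax (SD 0.725 over the samples) was matched most closely by Ndufs7 at 0.0622, Hsd17b10 at 0.0645 and Cenpx at 0.0833, of which the first 2 encode mitochondrial enzymes. Being chosen for this likeness, they had log2 fold changes of 0.76, 0.81 and 0.87. The course of Bax was dominated by cdKO replicate 5, at 1094 CPM against 184 to 449 CPM in the other 9 samples. The likeness was not examined without that library. The nearest to Bcl2 (SD 0.492) were Zfp664 at 0.122, Gm11715 at 0.145 and Ing2 at 0.155. The nearest to Bbc3 (SD 0.576) were Alg9 at 0.112, Ap3d1 at 0.118 and Sugp2 at 0.123.

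The wider apoptosis pathway was described with 9 lists of 126 genes, of which 100 were tested. At an unadjusted edgeR p of 0.05, cdKO samples had 0 of these genes higher (4.18% of all genes tested) and 2 lower (0.823% of all), and none passed after adjustment. The count of 2 depended on single libraries: it was 0 without control replicate 4, and without cdKO replicate 5 it was 5 of 103, all lower, where 1.76% of all genes were lower. Their median log2 fold change was -0.05. The 2 were Dock1, which drives the engulfing cell's cytoskeleton in phagocytic clearance (16.7 ± 5.53 and 8.43 ± 3.46 CPM, log2 fold change -0.98, exact permutation p = 0.0317; lower than the control mean in 5 of 5 cdKO samples), and Met, the hepatocyte growth factor receptor that supports limb MNs (2.15 ± 1.43 and 0.745 ± 0.465 CPM, log2 fold change -1.53, exact permutation p = 0.0397; also 5 of 5). With edgeR the unadjusted p was 0.0189 for Dock1 and 0.0251 for Met, and the adjusted p of both was 0.937.

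Within the family, 10 of 16 further Bcl2 genes were tested and 0 passed. Bnip3l, a mitophagy receptor, was the most strongly counted of them (257 ± 99.3 CPM in control, 266 ± 125 CPM in cdKO samples). Bcl2l2, a further anti-apoptotic gene, had 1.35 ± 0.695 and 2.62 ± 4.42 CPM, with 10.52 CPM in cdKO replicate 5 and 0.651 ± 0.229 CPM over the other 4. Bik had 0.873 ± 0.399 and 1.38 ± 0.683 CPM. Among the inhibitors of apoptosis (5 of 10 tested, 0 passed), Birc5, which also acts in cell division, had 108 ± 58.4 and 113 ± 45.9 CPM, Birc6 18.1 ± 9.82 and 11.9 ± 7.53 CPM, and Birc3 0.8004 ± 0.354 and 0.563 ± 0.453 CPM.

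Downstream of Bax and Bak1, 12 of 12 genes of the apoptosome and of mitochondrial release were tested and 0 passed. Cytochrome c (Cycs) had 277 ± 109 and 546 ± 522 CPM, with 1476 CPM in cdKO replicate 5 and 314 ± 51.5 CPM over the other 4 cdKO samples. Diablo, which relieves caspases of their inhibitors, had 235 ± 46.9 and 310 ± 87.2 CPM (275 ± 42.8 over those 4), and the channel gene Vdac3 619 ± 121 and 788 ± 159 CPM (729 ± 103 over those 4). For all 3, cdKO replicate 5 was the highest sample, as it was for Bax. Of 10 caspases, 6 were tested and 0 passed. The initiator Casp2 had 135 ± 25.4 and 123 ± 60.9 CPM, with 22.7 CPM in cdKO replicate 5 and 123 to 184 CPM in the other cdKO samples. Casp8, the initiator of the death receptor route, had 6.42 ± 3.36 and 3.0 ± 2.14 CPM (log2 fold change -1.09, exact permutation p = 0.0794), with 0 of 5 cdKO samples above the control mean. Control replicate 5, at 12.4 CPM, raised that mean, and the other controls had 4.38 to 5.34 CPM. Of the cdKO samples, replicates 2 and 4 lay inside the control range and replicate 5 had 0.176 CPM (9 counts).

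Upstream of the BH3-only genes, 18 of 20 genes of the p53 pathway and 15 of 15 of the JNK, Foxo and E2F route were tested, and 0 of either passed. Trp53 had 163 ± 32.3 and 144 ± 25.1 CPM. Its target Cdkn1a had 5.25 ± 1.64 and 9.24 ± 9.40 CPM, with 26.0 CPM in cdKO replicate 5 and 5.05 ± 0.773 CPM over the other 4, and Perp 0.226 ± 0.154 and 0.417 ± 0.206 CPM. Map3k12 (DLK), the kinase that starts the JNK response of neurons to axonal stress, had 46.4 ± 3.03 and 76.6 ± 67.0 CPM, again with the highest value, 195 CPM, in cdKO replicate 5, and 46.9 ± 11.04 CPM over the other 4. Map2k4 had 111 ± 31.5 and 97.1 ± 39.6 CPM, with 39.0 CPM in cdKO replicate 5 and 78.3 to 134 CPM in the other cdKO samples. Egr1 had 16.3 ± 10.1 and 10.6 ± 2.88 CPM.

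At the cell surface, 11 of 17 death receptor and adaptor genes were tested and 0 passed. Tnfrsf21 (DR6) had 39.8 ± 13.1 and 38.7 ± 7.32 CPM, Ripk3 1.57 ± 0.793 and 1.01 ± 0.736 CPM, and the dependence receptor gene Dcc 6.49 ± 5.80 and 2.92 ± 1.35 CPM (log2 fold change -1.15, exact permutation p = 0.183). Of the trophic receptors of MNs, 11 of 12 were tested and 1, Met, was lower. Gfra1, the binding receptor for GDNF, had 32.2 ± 13.5 and 31.2 ± 9.05 CPM, and Erbb4 0.337 ± 0.386 and 0.479 ± 0.281 CPM. In the clearance list, 12 of 14 were tested and 1, Dock1, was lower. Its partner Elmo1 had 55.5 ± 24.9 and 40.3 ± 15.2 CPM and Rac1, on which both act, 270 ± 6.59 and 237 ± 33.1 CPM, with 0 of 5 cdKO samples above the control mean for either gene. For Rac1, 4 of 5 cdKO samples were below every control sample (exact permutation p = 0.0159), while edgeR gave an unadjusted p of 0.429 (adjusted p = 0.995).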

How the data were processed

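The authors deposited raw counts per exon bin, 1 file per sample, without normalization. Per the labels, read pairs of 150 bases were sequenced, and the submitters' processing notes name bcl2fastq 2.17, Trimmomatic 0.36, STAR 2.5.2b, Subread 1.5.2 and DESeq2, with build GRCm38. The titles of the samples gave their group and replicate number. Of 425461 bins, 1480 that could not be assigned to a single gene were left out (0.256% of counts), and the others were summed to 48978 genes with GENCODE M21. Genes were filtered with filterByExpr (minimum count 10), TMM-scaled and tested with edgeR 4.0.16 in R 4.3.3 (quasi-likelihood, Benjamini-Hochberg adjustment, threshold 0.05, common biological coefficient of variation 0.540). Single genes were also compared with exact two-sided permutation tests over all 252 arrangements of the samples, of which the smallest possible p is 0.00794, on log2(CPM + 0.5). The balance score was not tested. Alternatives used DESeq2 1.42.0 and limma 3.58.1. The fits were tested on simulated data.

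The 9 genes and all lists were chosen with earlier results of these data known. The text names the 9 genes, and of each other apoptosis list the gene with the highest mean CPM, the 2 with the largest fold change and any with an unadjusted p under 0.05. Not every gene that this rule selects is reported here. Csf1r, C1qc, Isl1 and the other markers named were singled out after their values were seen. No 2 samples of a group were duplicates (chi-square per degree of freedom of at least 122 over 20 pairs). Nothing in the sources used here says whether samples are single embryos or pools, so p-values measure the spread between these samples, which may be technical. Totals count overlaps between reads and bins, and floors cover counting error only.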

Additional observations from a re-analysis of the deposited data

Results flagged for a closer look

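Within groups of 5 samples, the gap of the highest or lowest sample to its neighbour was compared with the range of the group, using Dixon's 95% critical value for 5 samples. Of 30 groups tested, 4 exceeded it, and all 4 concern cdKO replicate 5. The critical value assumes normally distributed values, while the gaps of Bax, Hrk and the effectors were taken on CPM without a log scale. The groups are also not independent, so the count of 4 cannot be set against a chance rate of 1 in 20. Bax was at 1094 CPM in this library, against 235 to 449 CPM in the other cdKO samples. Hrk was at 10.4 CPM, against 0.540 to 2.29 CPM. The summed effectors Bax and Bak1, which repeat the value of Bax, were at 695 CPM per kb, against 150 to 285. The number of exon bins with counts was 198569, against 254982 to 264487.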

How the results depend on the processing

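Of 178 results for the 9 genes under alternatives, 142 kept their direction and stayed short of an adjusted p of 0.05, 36 changed sign and 0 became significant. Bax, Bcl2l11 and Pmaip1 kept their direction in every alternative run. The sign changes were mostly of log2 fold changes near 0. With DESeq2 size factors Bcl2l1 was at 0.00286 and Bbc3 at 0.00647. With library size only, which moved the median of all genes from -0.02 to -0.15, Mcl1 was at -0.14 and the split at an unadjusted p of 0.05 was 373 higher and 256 lower genes. Without a filter Mcl1 was at -0.0138, and with at least 10 counts in every sample, which left out Pmaip1, Bbc3 was at 0.00291. With limma-voom Mcl1 was at -0.0128 and Bbc3 at 0.0808, and with sample weights Bak1 was at -0.23 and Bbc3 at 0.0287. On bins of a single gene Bbc3 was at 0.00262, and on the single highest bin, where Bak1 was not tested, Bcl2 was at 0.0317, Bcl2l1 at 0.116 and Mcl1 at -0.0333. Leaving out each sample gave -0.41 to 0.14 for Bcl2, -0.20 to 0.14 for Bcl2l1, -0.11 to 0.10 for Mcl1, -0.22 to 0.17 for Bbc3 and -0.14 to 1.33 for Hrk, the lowest of Hrk without cdKO replicate 5. The cause was not tested.

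The number of genes at an adjusted p of 0.05 was 1 with library size only, 1 without a filter, 19 with DESeq2, 3 with limma-voom, 13 with sample weights, and 0 to 4 leaving out each sample. Without cdKO replicate 5 the split at an unadjusted p of 0.05 was 107 higher and 321 lower genes. Among the 9, 0 to 1 passed an unadjusted p of 0.05 leaving out each sample. Of the other apoptosis genes, 9 of 100 did with sample weights (8.59% of all genes), 1 on the single highest bin, and 0 to 5 leaving out each sample. The balance differed by 0.54 as a log2 ratio of summed CPM, by 0.49 for Bax and Bak1 only, by 0.04 on the single highest bin, and by 0.07 to 0.21 leaving out each sample.

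Samples with the same replicate number did not deviate together in every case (correlations of 0.09, -0.32, 0.17, 0.43 and 0.36 for numbers 1 to 5, the own number being the best match for 4 and 5 only), so they are treated as sharing only a number. The numbers attached to the deposited counts differ from those in the titles, so which samples a block should pair is itself uncertain. With a replicate block, 0 genes passed an adjusted p of 0.05, 289 were higher and 173 lower at an unadjusted p of 0.05, 4 other apoptosis genes passed that threshold, Mcl1 was at -0.0117 and Bbc3 at 0.0839. Depth limits Bak1, Pmaip1 and Hrk, whose counts fall as low as 15, 7 and 43.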
